A study of Mus musculus with 18 samples.

Results

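The genes described here are the nuclear-encoded genes of the mitochondrial respiratory chain, taken as the protein-coding genes whose symbols start with Nduf, Sdha, Sdhb, Sdhc, Sdhd, Uqcr, Cox4, Cox5, Cox6, Cox7, Cox8 or Atp5. The choice went by symbol alone, though it was made with earlier results of these data known. It found 97 genes among the 54547 gene identifiers of the count files, with 44 for complex I, 8 for complex II, 8 for complex III, 20 for complex IV and 17 for complex V. Subunits of the finished complexes make up 83 of them. Another 12 are assembly factors of complexes I and II, which help to build the complexes and are absent from the finished enzyme, and the remaining 2 are Cox7a2l, a factor that joins complexes into larger assemblies, and Atp5s. The symbols of Ndufa4 and Ndufa4l2 name complex I, but Ndufa4 has since been placed in complex IV, and both were counted there.

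RNA from whole medial prefrontal cortex of C57BL6/J mice at postnatal day 100 was sequenced in 18 libraries. The 9 PLX5622 libraries came from mice fed chow with PLX5622 at 1200 mg/kg, and the 9 control libraries from mice fed control chow. PLX5622 inhibits the receptor CSF1R, which microglia, the macrophages of the brain, need to survive. The labels describe 21 days of treatment before an every-other-day drinking procedure with 15% ethanol for 44 days, and tissue taken 24 hours after the last ethanol. This treatment description is the same for every library, controls among them, and therefore leaves unstated which animals drank ethanol. The labels give no genetic change, sex, cage or litter. Each library has an animal number of its own, taken here as 1 animal. The inhibitor reached the whole animal through its food, and the tissue was not sorted into cell types, so fewer cells of a type and less RNA per cell cannot be told apart.

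The total count per library ran from 990136 to 1742680 (median 1384979). Levels are given as counts per 1000000 (CPM). The library size used for CPM was the summed count of the tested genes, scaled by the TMM method. Fold changes are given as log2 of PLX5622 over control with a standard error (SE). A gene was called where its adjusted p was under 0.05 in edgeR's quasi-likelihood test over 11051 genes. All 12 tested genes of the 13 on the microglia marker list were called lower, and their summed level was 147 ± 25 CPM in PLX5622 libraries and 469 ± 45 CPM in control libraries (SD, n = 9 each). Trem2, the remaining marker, was at 0 throughout, which is not read as silence. Of 9 neuronal markers none was called, with sums of 8671 ± 229 CPM in PLX5622 libraries and 8548 ± 247 CPM in control libraries. No tested marker of glutamatergic, GABAergic or striatal neurons, astrocytes, oligodendrocytes, endothelial or mural cells, red blood cells or choroid plexus was called either. Ttr, a marker of choroid plexus, had the largest positive fold change of all tested genes, with 15.5 ± 9.8 CPM in PLX5622 libraries and 5.30 ± 3.26 CPM in control libraries (1.49 ± 0.44, unadjusted p = 0.00364, adjusted p = 0.283).

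The respiratory chain passes electrons from NADH and succinate through complexes I, II, III and IV to oxygen, and complexes I, III and IV pump protons across the inner mitochondrial membrane as they do so. Complex V, the ATP synthase, lets the protons flow back and makes ATP. The mitochondrial genome encodes only some of the subunits of complexes I, III, IV and V, so the nucleus supplies the rest and all of complex II. Neurons depend on this pathway to restore ion gradients after firing.

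Promoters of some of these genes hold sequence motifs that the choice by symbol did not use. A RefSeq promoter, from 250 bases before to 50 bases after the start (build GRCm38.p6), was found for 80 of the 97 genes. The letters GCGCA, any 1 base and GCGC are the core recognised by the transcription factor NRF1 (nuclear respiratory factor). A gene was counted once if any of its promoters held a motif. The NRF1 core was found for 21 of these 80 genes (26.3%), against 1254 of 17492 protein-coding genes with a RefSeq promoter (7.17%). The difference in share was not tested. The letters AAGATGGC, a core of the factor YY1, were found for 11 (13.8%) against 3.57% of all such genes. The Ets core CCGGAAGT was found for 5 (6.25%) against 5.69%, and the Sp1 core CCGCCC for 39 (48.8%) against 49.2%. All were searched on both strands, and no motif contains another. Most AAGATGGC matches lay within 39 bases after the start, and they hold the letters ATG. Promoters were not matched for base composition, and a match describes letters only. The 30-base windows that follow are examples, read 5′ to 3′ along the gene with the motif in capitals. Every gene shown with the NRF1 core had a positive log2 fold change. Others with that core, not shown, include Atp5c1 at 0.11, Atp5g3 at −0.02, Atp5g2 and Atp5o at −0.08, Atp5h at −0.17 and Ndufa11 at −0.20. Shown are the NRF1 core in Sdha, Sdhd, Sdhaf3, Ndufs5, Cox6a1 and Atp5k, then the YY1 core in Atp5j, Ndufa3 and Ndufs7.
Sdha, chr13:74350231-74350260, minus strand: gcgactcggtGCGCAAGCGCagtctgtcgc
Sdha, chr13:74350276-74350305, minus strand: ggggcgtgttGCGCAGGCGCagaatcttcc
Sdhd, chr9:50603909-50603938, minus strand: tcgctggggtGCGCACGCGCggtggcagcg
Sdhaf3, chr6:6956001-6956030, plus strand: cccaccttctGCGCAGGCGCggcgcgatgc
Ndufs5, chr4:123718265-123718294, minus strand: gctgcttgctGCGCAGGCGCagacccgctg
Cox6a1, chr5:115349056-115349085, minus strand: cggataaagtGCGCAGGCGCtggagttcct
Atp5k, chr5:108434430-108434459, minus strand: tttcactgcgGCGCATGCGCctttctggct
Atp5j, chr16:84835046-84835075, minus strand: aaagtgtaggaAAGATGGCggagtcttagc
Ndufa3, chr7:3617384-3617413, plus strand: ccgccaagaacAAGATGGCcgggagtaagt
Ndufs7, chr10:80249462-80249491, plus strand: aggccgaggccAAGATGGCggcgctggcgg
Sdha and Ndufb4 each held 3 matches to the NRF1 core. The 20 tested genes with the NRF1 core had a median log2 fold change of 0.04, with 13 positive, and the other 65 tested genes, some of which had no promoter in the table, had a median of −0.0049, with 30 positive. For the YY1 core the split ran the other way, with a median of −0.05 and 3 positive among 11 tested genes with it, and a median of 0.01 and 40 positive among the other 74. Neither split was tested. Ndufa1, the only gene called below, had no match to the NRF1, YY1 or Ets core in its window.

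Across the 5 complexes, the transcripts of the respiratory chain stood at nearly equal levels in PLX5622 and control cortex. Of the 97 genes, 85 had enough counts to test. Ndufa1 of complex I rose, the only call, and no gene was called lower. Over all 11051 tested genes, 0.0452% were called higher, 0.353% lower and 0.398% in either direction. At an unadjusted p under 0.05, 6 of the 85 genes were higher and 1 lower, against 3.57% and 3.22% of all tested genes. The fold changes lay on both sides of 0, with 43 positive and 42 negative, and their median was 0.00 on the log2 scale, as it was over all tested genes. No gene had groups that did not overlap, against 0.199% of all tested genes.

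The intervals bound the size of any change. For 64 of the 85 genes (75.3%) the 95% confidence interval of the fold change lay wholly within 1.25-fold up or down (0.32 on the log2 scale), against 58.6% of all tested genes. Where the mean count per library was 50 or more, the shares were 89.4% of 66 genes and 90.7% of all such genes. Of the 21 genes whose intervals reached further, 14 had a mean under 50 counts, and for all 21 a change of that size or more lay within the interval.

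**Figure D1:**
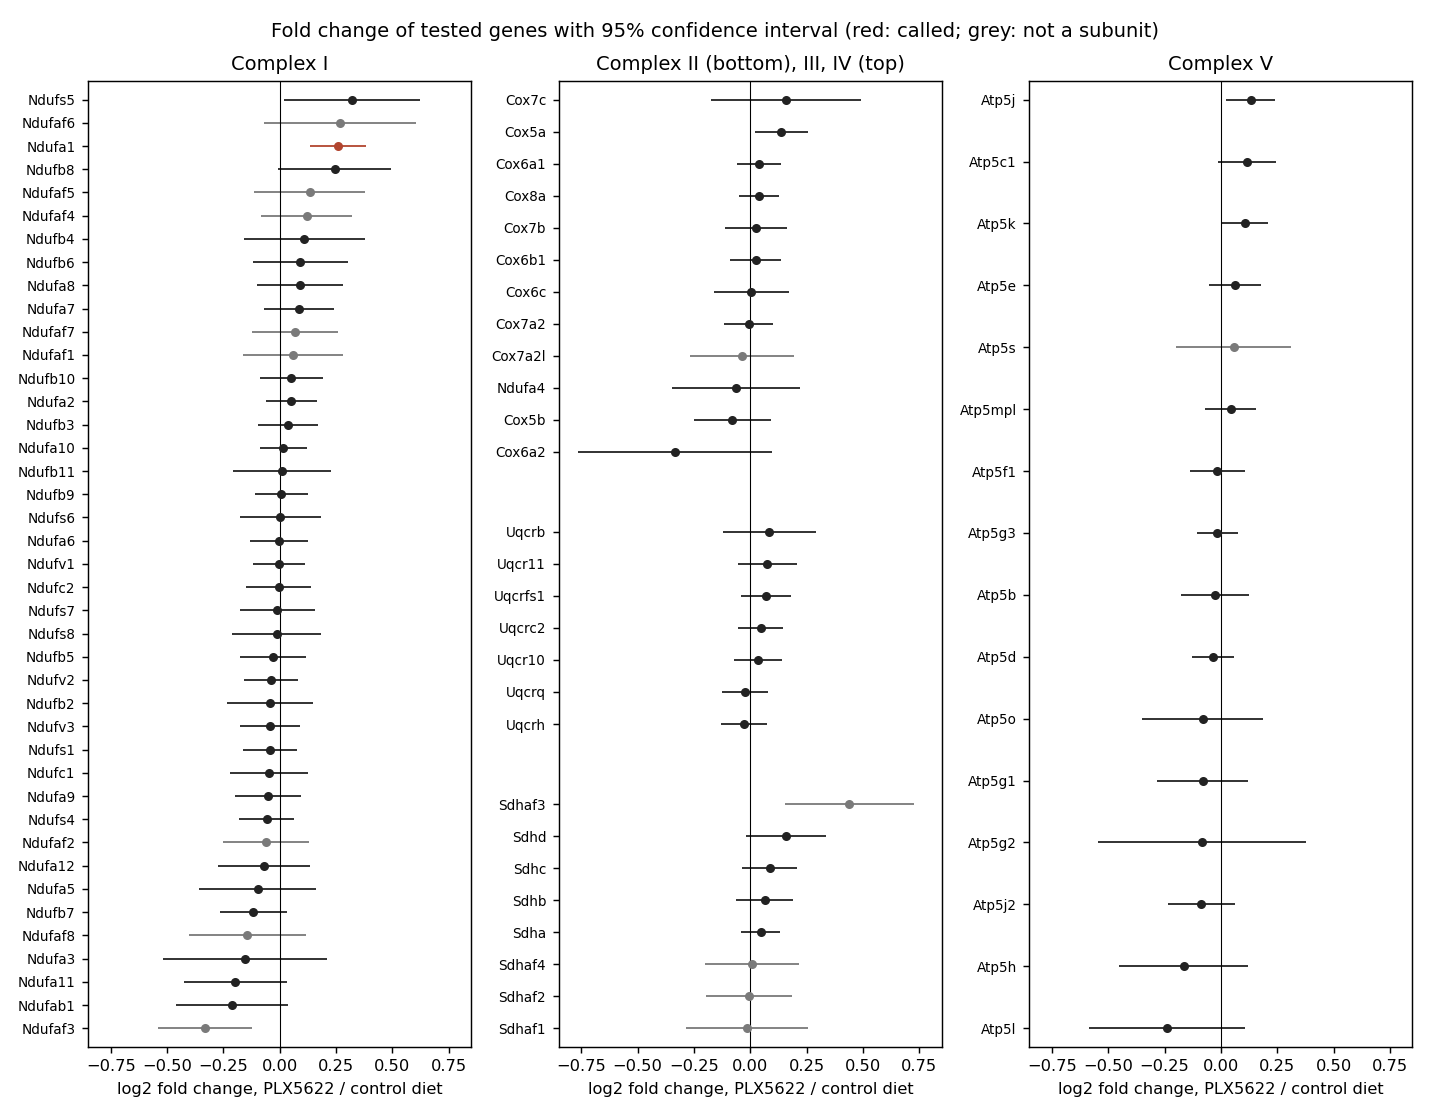
Log2 fold change (PLX5622 over control, n = 9 each, x axis) of 84 tested genes, each with its 95% confidence interval, in 3 panels by complex and sorted within each. Ndufa1 at 0.26, in red, was the only gene called, and assembly factors and other non-subunits are grey.

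Summed over its genes, complex I stood at 3376 ± 138 CPM in PLX5622 libraries and 3373 ± 292 CPM in control libraries (SD, n = 9 each, as for the sums that follow). Complex II stood at 818 ± 45 CPM in PLX5622 libraries and 782 ± 29 CPM in control libraries, a difference of 4.66%. The sums of complex III were 1288 ± 46 CPM in PLX5622 libraries and 1267 ± 88 CPM in control libraries. Those of complex IV were 2348 ± 101 CPM in PLX5622 libraries and 2315 ± 235 CPM in control libraries. For complex V they were 2822 ± 123 CPM in PLX5622 libraries and 2798 ± 196 CPM in control libraries. All 97 genes together made 10653 ± 385 CPM in PLX5622 libraries and 10536 ± 803 CPM in control libraries, which differ by 1.11%. Without Control 8 this difference was −0.0089% and without Control 11 it was −0.249%, so its direction rests on these libraries. In complexes I, III, IV and V the range of the controls contained every PLX5622 library. Complex II was the exception, where PLX5622 35, at 918 CPM, lay above all controls, the highest of which was Control 5 at 846 CPM. Without PLX5622 35 the difference in complex II was 3.06%, and without both PLX5622 35 and Control 5 it was 4.12%.

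**Figure D2:**
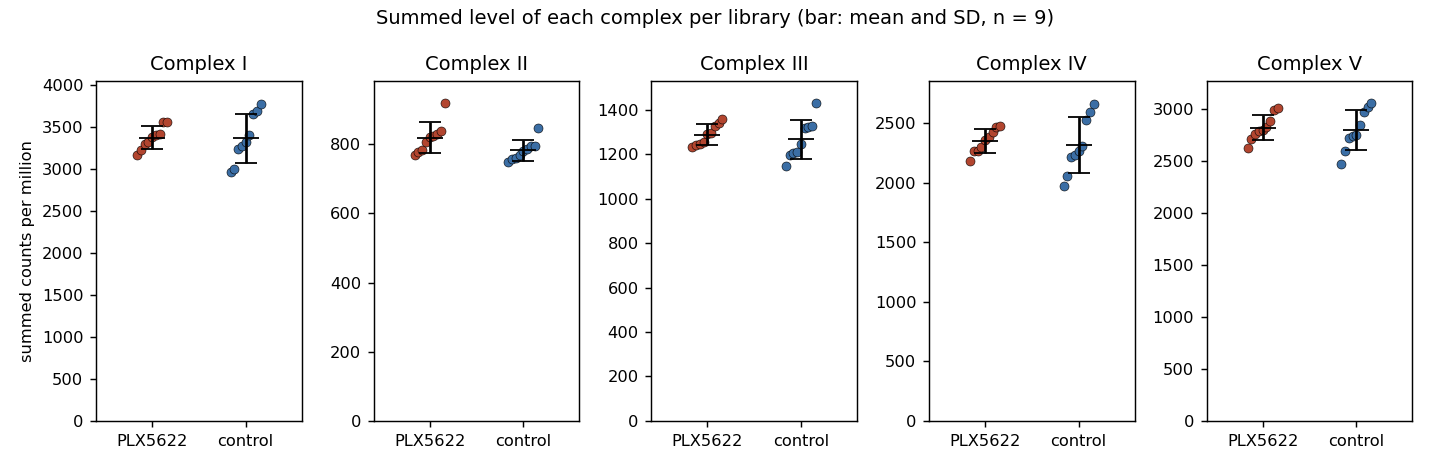
Summed CPM of the genes of each complex (y axis from 0) in each PLX5622 and control library, with the mean and SD of 9 libraries. The means of a complex lie close together, and the control libraries of complexes I, III, IV and V are spread more widely, as in complex IV with SDs of 101 CPM (PLX5622) and 235 CPM (control).

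Complex I takes electrons from NADH. Its core subunits carry the flavin and the iron-sulphur clusters, and the 5 described here had fold changes slightly below 0, and none was called. Ndufv1, which binds NADH, averaged 138 ± 7 CPM in PLX5622 libraries and 139 ± 10 CPM in control libraries (log2 fold change −0.0037 ± 0.06, SE, adjusted p = 0.998). Ndufs1, an iron-sulphur subunit beside it, averaged 140 ± 11 CPM in PLX5622 libraries and 144 ± 13 CPM in control libraries (−0.04 ± 0.06, adjusted p = 0.959). Ndufv2, another iron-sulphur subunit, was at −0.04 ± 0.06. Ndufs7 and Ndufs8, iron-sulphur subunits of the part where quinone is reduced, were at −0.01 ± 0.08 and −0.01 ± 0.10. Each of the 5 intervals lay within 1.25-fold.

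Among the 28 tested accessory subunits of complex I, which surround the core, 14 fold changes were positive and 14 negative, and 1 was called. Ndufa1, a small subunit of the membrane arm, is encoded on the X chromosome (chrX:37187588-37191163, minus strand, GRCm38, ENSMUSG00000016427.7). Its level in the PLX5622 libraries was 174 CPM in animal 25, 150 in 26, 158 in 27, 182 in 28, 185 in 29, 160 in 31, 152 in 32, 156 in 34 and 172 in 35. In the control libraries it was 146 CPM in animal 2, 105 in 3, 135 in 4, 134 in 5, 123 in 7, 169 in 8, 136 in 9, 154 in 10 and 134 in 11. All 9 PLX5622 libraries lay above the control mean of 137 CPM, while Control 8 and Control 10 lay within the PLX5622 range, so the groups overlapped. The log2 fold change was 0.26 ± 0.06 (95% confidence interval 0.14 to 0.38, adjusted p = 0.0214). The call was lost without PLX5622 28 (adjusted p = 0.0514), PLX5622 29 (0.0652), PLX5622 35 (0.0507), Control 3 (0.126), Control 4 (0.0520) or Control 7 (0.0711), with log2 fold changes from 0.22 to 0.30 over all 18 omissions. Microglia markers differed between the diets by the sums given above, and their part in the Ndufa1 value was not tested. The other genes of the group on the X chromosome, Ndufb11 and Cox7b, were at 0.01 ± 0.11 and 0.03 ± 0.07.

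**Figure D3:**
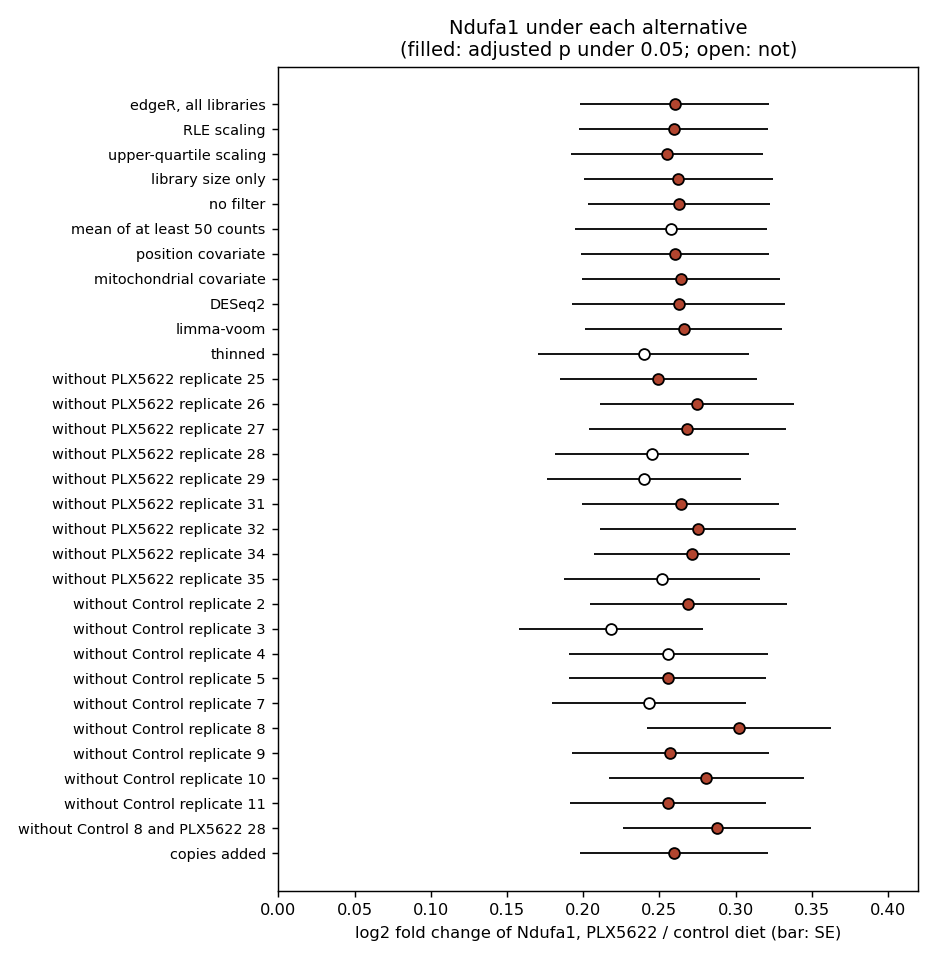
Log2 fold change of Ndufa1 (x axis, bar SE) under each alternative and with each library left out. Filled points had an adjusted p under 0.05 and open points did not, and the fold change stayed between 0.22 and 0.30.

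No other accessory subunit of complex I passed the test. Ndufs5 had the largest fold change, with 13.2, 21.1 and 23.7 CPM as lowest, median and highest level in PLX5622 libraries and 9.27, 15.4 and 22.5 CPM in control libraries. The groups overlapped over most of their range, and the log2 fold change of 0.32 ± 0.15 had an adjusted p of 0.708. Ndufb9, the accessory subunit with the highest level by CPM, averaged 222 ± 15 CPM in PLX5622 libraries and 221 ± 30 CPM in control libraries, although another gene model covers 62.9% of its span on the same strand. At the other end Ndufab1, the mitochondrial acyl carrier protein, was at −0.21 ± 0.12 (adjusted p = 0.808) and Ndufa11 at −0.20 ± 0.11 (0.807).

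The 8 assembly factors of complex I held 5 positive and 3 negative fold changes. Ndufaf3, which acts early in the assembly of the arm that reduces quinone, had 24.8, 30.4 and 34.5 CPM as lowest, median and highest level in PLX5622 libraries and 29.1, 40.1 and 44.6 CPM in control libraries. No PLX5622 library reached the control mean of 38.3 CPM, yet the groups overlapped, since 3 controls lay below the highest PLX5622 library. Its log2 fold change was −0.33 ± 0.10, with an unadjusted p of 0.00203 and an adjusted p of 0.233, so it was not called. Ndufaf6 was at 0.27 ± 0.17 with a mean of about 12 CPM in PLX5622 libraries and 10 CPM in control libraries.

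Complex II oxidises succinate and belongs to the citric acid cycle as well as the respiratory chain. All 4 subunits had positive fold changes and none was called. Sdha, the flavoprotein, had 363, 375 and 417 CPM as lowest, median and highest level in PLX5622 libraries and 347, 365 and 388 CPM in control libraries (0.05 ± 0.04, adjusted p = 0.916). Sdhb, the iron-sulphur subunit, was at 0.06 ± 0.06. The membrane anchors Sdhc and Sdhd were at 0.09 ± 0.06 and 0.16 ± 0.09, with adjusted p of 0.864 and 0.799. The groups overlapped for each of them, and the highest of all 18 libraries was PLX5622 35 for Sdha and Sdhc and PLX5622 28 for Sdhb and Sdhd.

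Sdhaf3, an assembly factor for the iron-sulphur subunit, had the largest positive fold change of all 85 genes. Its levels were 17.3, 24.8 and 31.3 CPM as lowest, median and highest in PLX5622 libraries and 10.3, 16.6 and 24.0 CPM in control libraries. Above all controls stood 5 of the 9 PLX5622 libraries. The log2 fold change of 0.44 ± 0.14 had an unadjusted p of 0.00317 and an adjusted p of 0.274. The other 3 assembly factors of complex II lay between −0.01 and 0.01.

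Complex III hands electrons from quinol to cytochrome c. The 7 tested subunits chosen by symbol had intervals within 1.25-fold without exception, with 5 positive and 2 negative fold changes. Uqcrfs1, the Rieske iron-sulphur protein, averaged 193 ± 20 CPM in PLX5622 libraries and 184 ± 14 CPM in control libraries (0.07 ± 0.06, adjusted p = 0.891). Uqcrc2, a core protein, was at 0.05 ± 0.05, Uqcr11 at 0.08 ± 0.07 and Uqcrq, the subunit with the most counts, at −0.02 ± 0.05. Cyc1 encodes cytochrome c1, also a subunit of complex III, but was not chosen by the symbols, so the sums of complex III leave it out. It was at −0.03 ± 0.06. Cycs, cytochrome c, was not chosen either and was at −0.05 ± 0.12.

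Complex IV, cytochrome c oxidase, reduces oxygen, and its nuclear subunits surround a core made by the mitochondrial genome. Of 12 tested genes 7 had positive and 5 negative fold changes, and none was called. Cox5a had 135, 154 and 175 CPM as lowest, median and highest level in PLX5622 libraries and 119, 140 and 158 CPM in control libraries. The groups overlapped, and the log2 fold change was 0.14 ± 0.06 (unadjusted p = 0.0234, adjusted p = 0.607). Its partner Cox5b was at −0.08 ± 0.09, and Cox7a2l, the factor for larger assemblies, at −0.04 ± 0.11. Ndufa4 averaged 119 ± 15 CPM in PLX5622 libraries and 124 ± 30 CPM in control libraries (−0.06 ± 0.13).

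Several subunits of complex IV exist as a form found in most tissues and forms typical of heart and skeletal muscle or testis, and the levels of the pairs were far apart in both diets. Per kilobase of exon, Cox8a stood at 840 CPM in PLX5622 libraries and 818 CPM in control libraries, while the muscle form Cox8b had 12 counts over the 9 PLX5622 libraries and 5 over the 9 controls. Cox6a1 stood at 597 CPM per kilobase in PLX5622 libraries and 581 in control libraries, and the muscle form Cox6a2 at 9.52 in PLX5622 libraries and 12.3 in control libraries. For Cox7a2 the values were 340 in PLX5622 libraries and 341 in control libraries, and for the muscle form Cox7a1 they were 6.04 in PLX5622 libraries and 4.49 in control libraries. Cox6b1 was at 273 in PLX5622 libraries and 268 in control libraries, and the testis form Cox6b2 at 3.06 in PLX5622 libraries and 2.28 in control libraries. These libraries are biased to the 3′ end, so counts need not grow with length. Cox6a2 was the only minor form with enough counts to test, at −0.34 ± 0.22 (adjusted p = 0.831), and Cox4i2, Cox6b2, Cox7a1, Cox7b2, Cox8b and Ndufa4l2 were too low.

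Complex V makes ATP. In its F1 head, Atp5b, the catalytic beta subunit, had 509, 563 and 613 CPM as lowest, median and highest level in PLX5622 libraries and 451, 566 and 677 CPM in control libraries, the most counts of any of the 97 genes (−0.03 ± 0.07, adjusted p = 0.988). Atp5c1, the gamma subunit at the centre of the head, was at 0.11 ± 0.06 (0.799), Atp5d at −0.03 ± 0.05 and Atp5e at 0.06 ± 0.06. The c ring that turns in the membrane is built from 1 protein made by 3 genes. Per kilobase of exon, Atp5g3 stood at 152 CPM in PLX5622 libraries and 154 in control libraries. Atp5g1 was at 9.93 CPM per kilobase in PLX5622 libraries and 10.6 in control libraries, and Atp5g2 at 4.54 in PLX5622 libraries and 4.61 in control libraries. None of the 3 was called. The level of Atp5g1 is uncertain, since a near-identical pseudogene held 3495 counts against 1248 for the gene. Counts from 3′-biased libraries also need not grow with exon length, so the gap between the 3 genes is not read as their relative output.

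In the stalk, Atp5j, coupling factor F6, had 226, 249 and 293 CPM as lowest, median and highest level in PLX5622 libraries and 193, 226 and 272 CPM in control libraries. Above the control mean of 228 CPM stood 8 of the 9 PLX5622 libraries, and the groups overlapped. The log2 fold change was 0.13 ± 0.05, with an unadjusted p of 0.0178 and an adjusted p of 0.575. Atp5k, subunit e in the membrane, was at 0.11 ± 0.05 (0.0444 and 0.726). Atp5l and Atp5h lay at the other end, at −0.24 ± 0.17 and −0.17 ± 0.14.

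**Figure D4:**
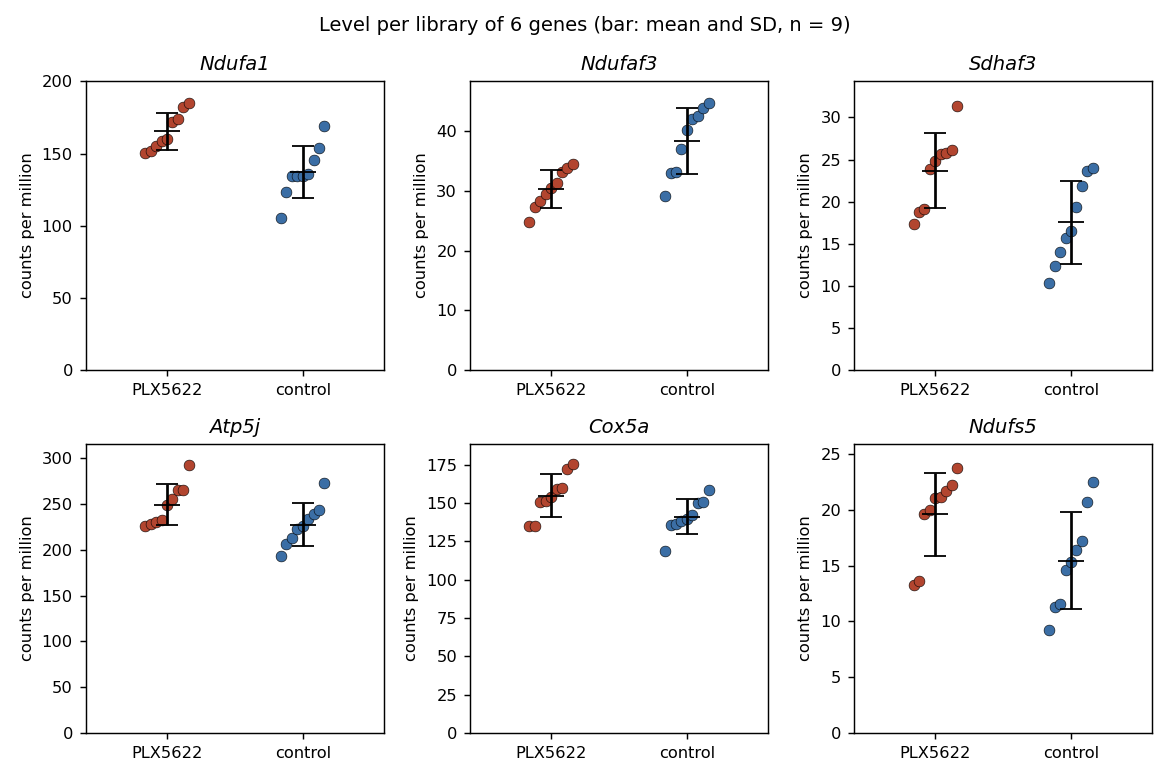
CPM per library (y axis from 0) of Ndufa1, Ndufaf3, Sdhaf3, Atp5j, Cox5a and Ndufs5, the 6 genes with the smallest p, in PLX5622 and control libraries, with the mean and SD of 9 libraries. The groups overlap in each panel, and only Ndufa1 was called.

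The filter on low counts left 12 members untested. Of these, 6 had some counts, and none was called when the filter was dropped. The other 6 were at 0 in all 18 libraries, namely Ndufa13, Ndufs3, Uqcrc1, Cox4i1, Atp5a1 and Cox8c. Ndufa13 and Cox4i1 are covered over 100% of their span on their own strand by another gene model, Yjefn3 and Gm20388. No such cover was found for Ndufs3, Uqcrc1 and Atp5a1, while Gm12251, a pseudogene nearly identical to Ndufs3, held 1587 counts. Several of these genes encode subunits without which the complexes cannot work, among them the alpha subunit of ATP synthase (Atp5a1), so a value of 0 is not read as silence.

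Pseudogenes also bear on the tested members. Respiratory chain genes have left many processed copies in the genome, and 26 of the 97 had at least 1 pseudogene of at least 95% identity. For 4 tested genes the copies held most of the counts of gene and copies together, with 90.8% for Atp5h, 73.7% for Atp5g1, 68.0% for Cox7c and 59.5% for Ndufb11. The share was 48.5% for Ndufc1, 42.4% for Atp5o and 33.7% for Cox6c. Counts of these genes are uncertain. With the counts of the copies added, Ndufa1, which has no such copy itself, was again the only call. The log2 fold change of Atp5g1 then turned to 0.09, against −0.08 without the copies, and the median of complex V to 0.03, against −0.02.

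Many of the respiratory chain genes differed from library to library, and did so in the same libraries. Relative to the mean over all 18 libraries, the median of the 85 genes was −0.15 (log2 CPM) in Control 8 and −0.15 in Control 11, and 0.15 in Control 2, 0.12 in Control 5 and 0.10 in Control 9. PLX5622 libraries lay between −0.07 and 0.10. Control 8 was the lowest of 18 libraries for 21 of the 85 genes (24.7%, against 10.2% of all tested genes) and Control 11 for 17 (20% against 5.44%). Control 2 was the highest for 14 (16.5% against 4.86%), and Control 9 for 12 (14.1% against 4.50%).

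By complex, Control 8 had a median of −0.20 in complex I, −0.23 in complex IV, −0.13 in complex III and −0.07 in complex V, and of −0.03 in complex II. In Control 11 these medians were −0.16 for complex I, −0.24 for complex IV, −0.14 for complex III and −0.13 for complex V, and −0.02 for complex II. Of the 5 complexes, complex II lay nearest to its mean in both libraries. In PLX5622 35 complex II lay furthest from its mean, at 0.23, with 0.08 in complex I, 0.05 in complex III, 0.02 in complex IV and 0.10 in complex V. Atp5b shows the pattern, with 451 CPM in Control 8 and 491 in Control 11, and 664 in Control 2, 677 in Control 5 and 675 in Control 9. Atp5o had 88.6 CPM in Control 8 and 204 in Control 2, and Ndufa4 had 72.7 in Control 8 and 169 in Control 9. In Control 8, 19 of the 85 genes ran against it and lay above their mean. Control 8 was the highest control for Ndufa1, Sdhaf3, Ndufs5 and Atp5j, and also for Atp5k, Cox8a, Ndufs4 and Ndufaf2. Ndufaf3 went with the pattern, and Control 8 was its lowest control. For Ndufa1, Sdhaf3, Ndufs5, Atp5j and Ndufaf3, among the genes with the smallest p, Control 8 lay on the side where the PLX5622 libraries stood. For Ndufs4 and Ndufaf2, each with a log2 fold change of −0.06, it lay on the other side. The microglia markers of Control 8, at 454 CPM, lay within the control range of 411 to 578 CPM.

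**Figure D5:**
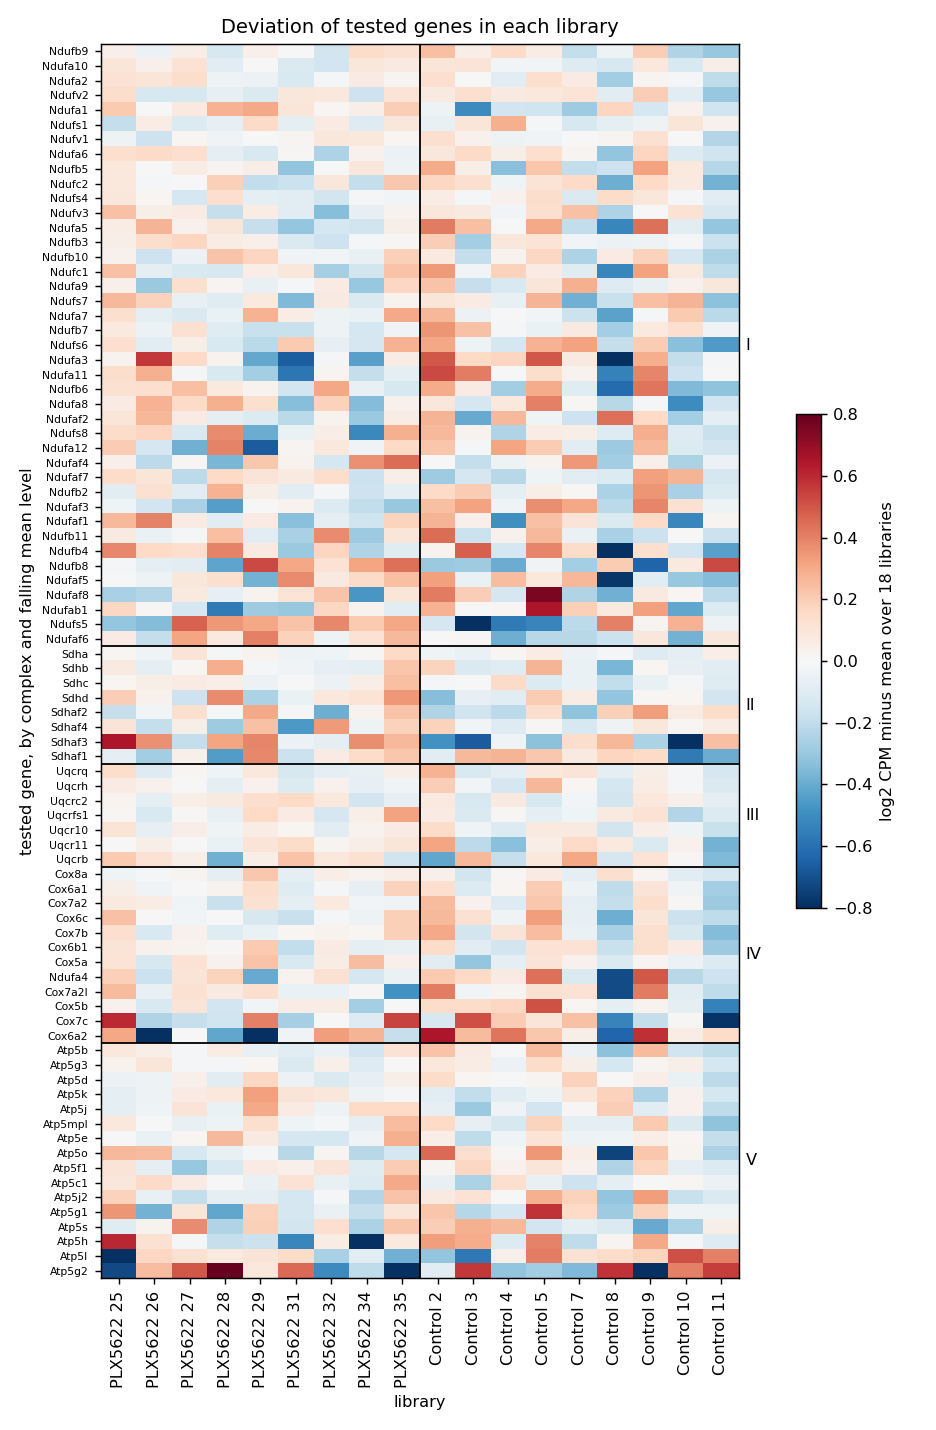
Log2 CPM of 84 tested genes, each minus its mean over 18 libraries (colour), by library (columns, PLX5622 at the left) and gene (rows, by complex). Control 8 and Control 11 are blue over much of complexes I, III, IV and V, with medians of −0.15 each, and Control 2 is red with a median of 0.15.

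The spread between libraries of a diet exceeded counting noise by a median factor of 1.97 in variance among the 66 genes that averaged 50 counts or more, against 1.35 over all such genes. The factor was above 2 for 34 of the 85 genes (40%, against 13.6% of all tested genes). At a given relative spread the factor grows with the count, and neither comparison was matched for count level. Of the 85 genes 66 averaged 50 counts or more, and of the 11051 tested genes 5767 did. Whether these genes vary more than others of like count was not tested. The factor reached 10.1 for Atp5b, 7.06 for Atp5o, 6.41 for Ndufa4, 5.42 for Cox6c and 5.41 for Ndufa3. Of the 34 genes, 9 had counted copies. For the summed level of all 97 genes the SD was 3.61% of the mean in PLX5622 libraries and 7.62% in control libraries. Without Control 8 and Control 11 it was 5.72% in the controls, and the difference between diets was −1.68%. The difference in spread between the diets was not tested.

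Other gene lists showed which levels moved with these libraries. The summed level of cytosolic ribosomal proteins was 3733 ± 146 CPM in PLX5622 libraries and 3781 ± 341 CPM in control libraries, with its lowest values in Control 8 (3212 CPM) and Control 11 (3260 CPM). Citric acid cycle genes were also lowest in Control 8, at 1648 CPM, with means of 1912 ± 70 CPM in PLX5622 libraries and 1883 ± 113 CPM in control libraries. Mitochondrially encoded genes followed in part, with 15374 CPM in Control 11, the lowest control, and 18023 CPM in Control 5, the highest of all libraries, but with 17275 CPM in Control 8, above 12 other libraries. Cell type markers differed in Control 8 as well. Markers of glutamatergic cortical neurons were at their lowest there, at 1386 CPM, and astrocyte markers at their highest, at 3463 CPM. Striatal markers (518 CPM) and oligodendrocyte markers (2004 CPM) were among the higher values, and general neuronal markers, at 8938 CPM, lay above 16 libraries. In Control 11 the glutamatergic markers, at 1531 CPM, and the astrocyte markers, at 3248 CPM, were not at an end of the range. The part of any of these in the library pattern was not tested.

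Lists of neighbouring pathways held no call. None was made among 29 tested assembly genes outside the symbols, where Sco1, a copper carrier for complex IV, was at −0.44 ± 0.20 (adjusted p = 0.641). The same holds for 13 citric acid cycle genes, where Suclg2, a subunit of succinyl-CoA ligase, was at −0.43 ± 0.18 (0.592), and for 6 tested carriers and pores, where Slc25a5, an ADP/ATP carrier, was at 0.09 ± 0.06 (0.833). Among 12 tested regulators of mitochondrial genes, Tfam, which binds mitochondrial DNA, was at 0.17 ± 0.11 (0.828), Nrf1 at 0.10 ± 0.09 and the coactivator Ppargc1a at 0.02 ± 0.06. Of the 13 mitochondrially encoded subunits 8 could be tested and none was called. Their median was −0.05, with mt-Nd2 at −0.07 ± 0.04 (0.788). The other 5 were at 0 in all libraries, which is not read as silence, and the summed level given above lacks them. None of 55 tested ribosomal protein genes was called, with Rps25 at −0.44 ± 0.21 (0.720). At an unadjusted p under 0.05, 1 assembly gene was higher and 2 were lower, 1 citric acid cycle gene and 1 ribosomal protein gene were lower, and the regulators, the carriers and pores and the mitochondrially encoded genes held 0.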

How the data were processed

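The deposited values were whole-number read counts per Ensembl gene, 1 file per library, from 3′-biased, single-end libraries, per the labels' protocols. Bowtie2 2.3.4.3 and HTSeq 0.11.0 are named in the submitters' processing notes, next to FastQC 0.11.8 and DESeq2 1.10.1 as well as R 3.5.1, with mm10 and GRCm38.p6 as builds. The role of each tool, like the strand setting and the annotation release, is not given in the sources used here. Reads shared between a gene and a near-identical copy or an overlapping gene may have been dropped or moved between them.

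Identifiers were matched without version to GENCODE M21 (53706 of 54547, the rest holding 0.0278% of counts), which gave biotypes and positions. Another 13 matches to the symbols were not protein-coding. Counts were tested with edgeR 4.0.16 in R 4.3.3, after filterByExpr (at least 10 counts in enough libraries and 15 in total), with TMM factors, a robust quasi-likelihood fit of diet alone and Benjamini-Hochberg adjustment over all tested genes, after testing on simulated data. Complexes were described by medians and summed CPM, with no test of their own. Deviations between libraries used log2(CPM + 0.5). Copies were pseudogenes found with blastn 2.17.0 at 95% identity over at least 100 bases and 50% of the copy. Alternatives were DESeq2 1.42.0, limma-voom (limma 3.58.1), other scalings, filters and thresholds, thinning, 2 covariates and leaving out each library.

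No pair of libraries of a diet agreed within sampling noise (chi-square over degrees of freedom at least 1.13). Nothing in the labels beyond the animal numbers shows that the samples are separate animals, and p-values measure the spread between these samples. The members, lists and tests were chosen with earlier results of these data known. The named members are every called gene, the 3 with the smallest p and the 1 with the highest CPM in each complex, the 2 assembly factors with the smallest p, and fixed sets of core subunits and isoforms. Ndufab1, Ndufa11, Ndufaf2, Ndufaf6, Ndufb11, Ndufs4, Atp5d, Atp5e, Atp5h, Atp5l, Atp5o, Cox6c, Ndufc1, Ndufa3, Nrf1 and Ppargc1a were chosen after their values were seen. So were the library pattern, the sums without single libraries and the counts by promoter motif. A gene that the rule names is not reported here.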

Additional observations from a re-analysis of the deposited data

Results flagged for a closer look

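In 98 groups of 9 libraries (each named member or complex sum in each diet), 10 held a library that stood far from the nearest other, by more than Dixon's 95% critical value allows. Chance flags about 1 in 20 such groups. In PLX5622 libraries, PLX5622 29 stood high for Atp5k, at 403 CPM with the next at 344, and for Cox8a, at 594 CPM with the next at 531. PLX5622 35 stood high for Sdhc, at 131 CPM with the next at 116, and for the sum of complex II, at 918 CPM with the next at 838, and low for Cox7a2l, at 50.5 CPM with the next at 67.8. PLX5622 27 stood high for Ndufa4l2, at 5.77 CPM with the next at 3.41. In control libraries, Control 4 stood high for Ndufs1, at 173 CPM with the next at 151, and Control 5 for the sum of complex II, at 846 CPM with the next at 796. Control 11 stood low for Ndufv1, at 117 CPM with the next at 135, and for Cox7a1, with 0 CPM and the next at 2.21, where the group's counts per library ran from 0 to 5.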

How the results depend on the processing

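No gene was called lower under any alternative, and 1 gene, Ndufa1, was called higher under all but 3 of those that kept every library. The 3 were restriction to genes averaging 50 counts or more (0 called, Ndufa1 adjusted p = 0.0733), thinning to 990136 counts per library (0 called, 0.171) and a threshold of 0.01 (0 called, 0.0214); the cause was not tested, beyond fewer genes or counts in the first pair. Leaving out each library gave 0 to 1 genes called higher. DESeq2 (0.0469) and limma-voom (0.0342) kept the call, as did the fit without Control 8 and PLX5622 28 (0.00420) and the one with counts of copies added (0.0202), both chosen after seeing the data. Over all 18 omissions the medians of the complexes ran from −0.04 to 0.02 (I), 0.03 to 0.07 (II), 0.03 to 0.07 (III), −0.02 to 0.04 (IV) and −0.04 to −0.0031 (V). Other alternatives reached 0.04 for I and 0.05 for IV (covariate of mitochondrial counts) and turned V to 0.01 (the same covariate) and 0.03 (copies added). Of 1175 values of 37 tested named members under alternatives, 1104 kept direction and side of the threshold, 9 lost a call, each of them Ndufa1, and 62 changed sign without a call. Members with few counts are limited by depth. No paired analysis was possible because the diets share no animal number.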
